A study of Mus musculus with 9 samples.

Results

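Injected recombinant human IgG1 was compared with injected PBS in the livers of mice that had been on a high-fat diet, over all genes of the count table. The 3 libraries labelled HFD + IgG1 (replicates 5, 6 and 7) were set against the 3 labelled HFD + PBS (replicates 3, 4 and 6), 6 of the 9 libraries of the series. The other 3 libraries, from mice on a normal diet, entered the estimate of the spread but not the comparison. The labels call the mice of all 9 samples male, ApoE-/- and of C57BL/6 background, so the controls lacked Apoe as well. From 4 weeks of age the mice of both compared groups ate a diet of 4700 kcal/kg in which fat gave 41%, carbohydrate 43% and protein 17% of the calories. It lasted 20 weeks and was followed by 1 week of chow. At 25, 26 and 27 weeks of age they were injected intraperitoneally with PBS or with 3 mg of recombinant human IgG1, and at 29 weeks they were killed. The target of the antibody is not named. The treatment label of HFD + IgG1 replicate 5 reads IgG1, and those of replicates 6 and 7 read IgG2 and IgG3, while the sample titles and the study design put all 3 in the IgG1 group. Livers were taken for sequencing on the basis of Oil Red O staining and triglyceride measurements, so the groups hold chosen livers.

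ApoE is the ligand through which the liver takes up remnant lipoproteins, and mice without it accumulate cholesterol-rich particles in plasma and develop inflamed, fatty livers on a rich diet. IgG is bound by Fc gamma receptors. On macrophages and neutrophils the activating receptors FcγRI, FcγRIII and FcγRIV signal through the Fc receptor gamma chain, whose ITAM motif recruits the kinase Syk, while FcγRIIB carries an inhibitory motif and FcRn protects IgG from breakdown. In the liver these cells include the resident Kupffer cells, macrophages recruited from blood and infiltrating neutrophils, and most of the remaining RNA comes from hepatocytes, which make bile acids, plasma proteins and the enzymes of lipid and drug metabolism. Many of those hepatocyte genes differ between male and female mice under the control of growth hormone.

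Total counts per library ran from 16215194 to 18538463. The library labelled HFD + IgG1 replicate 5 held 235888 Apoe counts, against 225 to 1655 in the other 8, so its RNA goes against the ApoE-/- label. That library alone set the fitted log2 fold change of Apoe at 7.17, which was 1.06 without the libraries described here. Xist, the RNA of the inactive X chromosome of females, had 10970 counts in HFD + PBS replicate 6 and 17065 in normal diet replicate 5, and at most 4 in the others. Summed over 4 genes of the Y chromosome (Ddx3y, Eif2s3y, Kdm5d, Uty), both had 0 counts, a result that up to 3 counts could give, and each of the others had 2837 to 3385, so both go against the male label. Results are therefore given for all libraries and, for many lists and genes, without these 3, called the conflicting libraries. A result given only for all libraries is not thereby unchanged without them. A separate feature is that HFD + IgG1 replicate 6 lay nearer to the HFD + PBS libraries than to its own group. Across genes, its log2(CPM + 1) values correlated at 0.967, 0.977 and 0.983 with HFD + PBS replicates 3, 4 and 6 and at 0.955 with each of HFD + IgG1 replicates 5 and 7, which correlated at 0.983 with each other (a description, since genes are not independent). CPM are a gene's counts relative to its library's total, scaled by edgeR's TMM factors. The hepatocyte markers Alb, Apoa1, Ttr, Serpina1a, Cyp2e1 and Fgb stood above 939 CPM in all 6 libraries compared, with Alb at 37856, 65696 and 53666 CPM in HFD + PBS and 137760.0, 65117 and 102650.0 CPM in HFD + IgG1 and Fgb, which went the other way, at 5270.3, 21293 and 11051 CPM in HFD + PBS and 5609, 11740.0 and 7925 CPM in HFD + IgG1. Skeletal muscle and pancreatic acinar markers were nearly all too low to test: of 14 listed in each, 2 and 1 passed the filter on low counts.

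A pair of broad patterns ran through the comparison. Genes of neutrophils, macrophages, their Fc gamma receptors and their inflammatory mediators were lower after IgG1 than after PBS, and genes that male hepatocytes express, with those of fatty acid oxidation and bile acid synthesis, were higher. Both differences were large in HFD + IgG1 replicates 5 and 7 and small in replicate 6. No single gene passed the multiple-testing threshold: edgeR's quasi-likelihood test called 0 of 14763 genes at an adjusted p under 0.05 (0% in either direction), with a lowest adjusted p of 0.14. At an edgeR unadjusted p under 0.05, called nominal below, 1863 genes were higher (12.6%) and 1706 were lower (11.6%). In 2257 genes (15.3%) all 3 HFD + IgG1 values lay above all 3 HFD + PBS values, and in 1660 (11.2%) all lay below. DESeq2 called 564 genes higher (3.82%) and 701 lower (4.75%) on the same counts, and limma-voom called 0.

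The outcome turned on single libraries. Without HFD + IgG1 replicate 6, edgeR called 1083 genes higher and 1273 lower, while without replicate 5 or replicate 7 it called 0, with 1711 and 1921 nominal genes. Without HFD + PBS replicate 3 it called 0, with 2281 nominal genes. Without the 3 conflicting libraries it called 0, with 607 nominal genes higher and 642 lower. Upper-quartile scaling shifted the balance to 1369 higher and 1996 lower, so the split of directions depends on the scaling. Over all tested genes, 53.8% of the values of HFD + IgG1 replicate 6 fell within the range of the 3 HFD + PBS values, against 29.4% for replicate 5 and 27.6% for replicate 7.

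**Figure D1:**
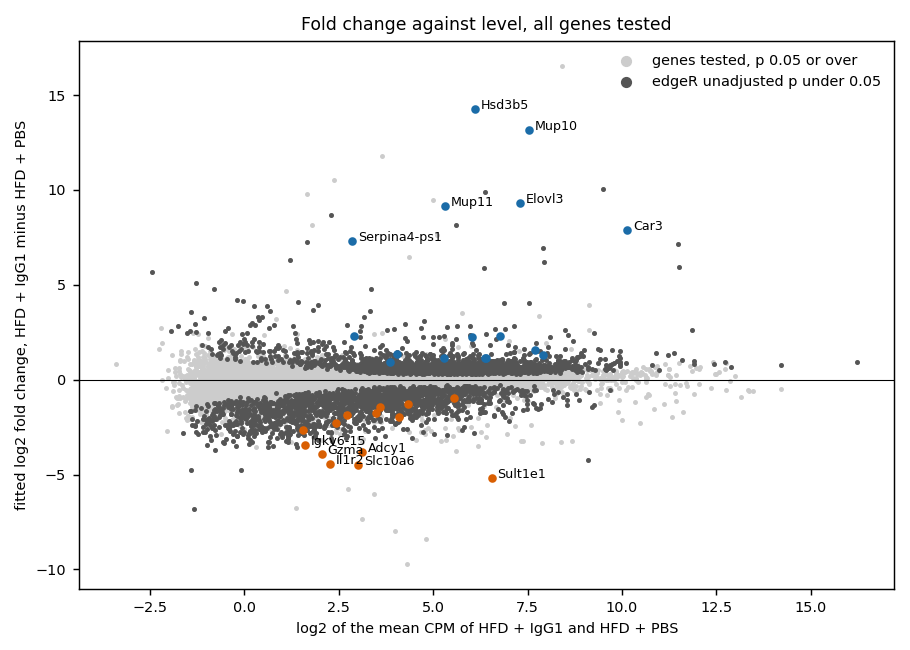
Fitted log2 fold change (HFD + IgG1 minus HFD + PBS, y axis) against the log2 mean CPM of the 2 groups (x axis) for the 14763 genes tested, with dark points for a nominal p under 0.05. Blue and orange points are the genes named for a small p or a large fold, higher and lower, and the labels give those named for the fold. The fitted values of Hsd3b5 and Mup10 rest on 0 and 2 counts in HFD + PBS and are no measure of its size.

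In what follows a gene's values are for HFD + PBS replicates 3, 4 and 6 and HFD + IgG1 replicates 5, 6 and 7, in that order, and a fold change is the log2 difference, HFD + IgG1 minus HFD + PBS, given ± its standard error from edgeR's test. "Nominally lower" or "higher" means a nominal p under 0.05 and "separated" means that the groups' values do not overlap. List counts are to be read against the shares over all genes given above. The median fold change of all genes was 0.04. As RNA of whole liver was measured, fewer cells of a type and less RNA per cell cannot be told apart.

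The injected protein is an IgG, and the transcripts of 3 activating IgG receptors and of their signalling chain were lower in the livers that received it. The 4 promoters printed here are of the 3 ligand-binding activating receptors, which were lower, and of the inhibitory receptor, which differed less. They run from 250 bases before to 50 after the RefSeq start (GRCm38.p6, 5′ to 3′ on the gene's strand), and capitals mark matches to GAGGAA or its complement TTCCTC, the core letters bound by the myeloid transcription factor PU.1.
Fcgr1 (chr3:96293920-96294219, minus strand): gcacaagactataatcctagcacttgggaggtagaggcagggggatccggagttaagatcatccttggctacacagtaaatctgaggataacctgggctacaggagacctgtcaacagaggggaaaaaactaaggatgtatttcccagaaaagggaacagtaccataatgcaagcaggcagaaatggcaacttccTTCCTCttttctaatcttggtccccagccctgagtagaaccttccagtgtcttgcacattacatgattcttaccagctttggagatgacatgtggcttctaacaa
Fcgr3 (chr1:171059354-171059653, minus strand): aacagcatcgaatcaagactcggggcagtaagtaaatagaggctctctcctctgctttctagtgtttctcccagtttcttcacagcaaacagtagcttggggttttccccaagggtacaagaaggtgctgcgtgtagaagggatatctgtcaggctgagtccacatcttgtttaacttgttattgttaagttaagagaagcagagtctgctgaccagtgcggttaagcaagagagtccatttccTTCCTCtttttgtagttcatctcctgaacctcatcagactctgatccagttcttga
Fcgr4 (chr1:171018676-171018975, plus strand): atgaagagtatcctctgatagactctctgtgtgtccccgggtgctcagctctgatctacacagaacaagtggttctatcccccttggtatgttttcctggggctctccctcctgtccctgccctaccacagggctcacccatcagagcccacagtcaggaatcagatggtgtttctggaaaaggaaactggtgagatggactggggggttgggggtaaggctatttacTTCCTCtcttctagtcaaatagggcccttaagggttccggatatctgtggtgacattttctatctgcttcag
Fcgr2b (chr1:170976022-170976321, minus strand): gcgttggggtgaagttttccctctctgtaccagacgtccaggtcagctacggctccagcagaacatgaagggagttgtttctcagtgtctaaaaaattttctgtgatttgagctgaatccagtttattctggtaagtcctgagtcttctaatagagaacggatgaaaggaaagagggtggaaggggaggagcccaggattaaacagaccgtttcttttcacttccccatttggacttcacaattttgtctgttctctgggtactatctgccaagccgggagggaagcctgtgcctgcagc
Fcgr1, Fcgr3 and Fcgr4 hold 1 match each in this window and Fcgr2b holds 0. The Fcgr3 window lies inside the gene span given below, and the sequence at the upstream end of that span was not searched. On both strands, the letters occur in 26.8% of the 10782 promoters of tested genes that have one in the table. They occur in 6 of 10 promoters (60%) of the list of Fc gamma receptors and IgG handling, in 13 of 17 (76.5%) of the neutrophil receptor list and in 8 of 16 (50%) of the ITAM list. Other lists with lower expression lay on both sides of the share of all tested promoters. Above it were 7 of 10 (70%) of T cell markers, 9 of 16 (56.2%) of neutrophil granule genes and 7 of 14 (50%) of Kupffer cell markers. At or below it were 2 of 9 (22.2%) of MHC class II genes, 3 of 12 (25%) of leukocyte transcription factors and 2 of 11 (18.2%) of dendritic cell markers. Lists of other cells or processes were also above it, with 6 of 9 (66.7%) of cholangiocyte markers and 7 of 14 (50%) of fatty acid synthesis genes. The other 2 motifs searched were those of factors active in hepatocytes. TTGCNNAA (C/EBP) was in 8.94% of tested promoters and 12 of 21 (57.1%) of the acute phase list, which had a negative median. It was also in 7 of 13 (53.8%) of plasma carriers and serpins, a list with a positive median. Among B and plasma cell markers, with a negative median, it was in 4 of 9 (44.4%). TTCNNNGAA (STAT) was in 7.11% of tested promoters, 1 of 15 (6.67%) of the male-biased list and 2 of 13 (15.4%) of the female-biased list. It was in 6 of 14 (42.9%) of interferon gamma response genes, with a negative median. It was also in 5 of 13 (38.5%) of bile acid and canalicular transporters, with a positive median. Kupffer cell markers (0 of 14) and mitosis genes (0 of 20), both with negative medians, held 0 matches. The motifs and the promoters shown were chosen after the expression values were seen, and a match is a description of letters, not of binding.

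Fcgr3, the low-affinity activating receptor (ENSMUSG00000059498, chromosome 1, 171051174 to 171064935, mm10), stood at 89.7, 76.9 and 64.1 CPM in HFD + PBS and 12.7, 45.1 and 15.7 CPM in HFD + IgG1. Every HFD + IgG1 value was below every HFD + PBS value, with replicate 6 the nearest. Its fold change was -1.65 ± 0.43 and its edgeR adjusted p 0.14. Fcgr4, which binds IgG2a and IgG2b in mice (ENSMUSG00000059089, chromosome 1, 171018920 to 171029761, mm10), was at 80.2, 97.02 and 54.2 against 10.99, 47.1 and 18.4 CPM, a fold change of -1.59 ± 0.48, again with replicate 6 nearest to HFD + PBS. Fcgr1, the high-affinity receptor (ENSMUSG00000015947, chromosome 3, 96282909 to 96293969, mm10), was at 33.4, 22.1 and 27.1 against 7.42, 18.6 and 9.54 CPM (-1.21 ± 0.34). The shared signalling chain Fcer1g (ENSMUSG00000058715, chromosome 1, 171229572 to 171234365, mm10) was at 78.6, 54.3 and 54.5 against 10.4, 38.5 and 17.3 CPM (-1.496 ± 0.42). All 4 were separated and nominally lower, and all had an edgeR adjusted p of 0.14. Fcgr2b, the inhibitory receptor, which liver sinusoidal endothelium also makes, overlapped at 84.1, 122 and 117 against 81.6, 100.2 and 63.6 CPM (-0.40 ± 0.21, edgeR adjusted p = 0.26). Fcgrt, encoding the FcRn heavy chain, overlapped at 109, 126 and 143 against 160.4, 131 and 152 CPM (0.23 ± 0.15, edgeR adjusted p = 0.35). Whether the activating and inhibitory receptors differed from each other in response was not tested. Without the 3 conflicting libraries the fold changes were -1.48 for Fcgr3, -1.47 for Fcgr4, -1.01 for Fcgr1 and -1.28 for Fcer1g. The whole list had 10 of 11 members tested, 4 nominally lower and 1 nominally higher (Pigr, the receptor that carries IgA into bile, at 0.51). Its median was -0.80, and -0.33 without HFD + PBS replicate 6.

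**Figure D2:**
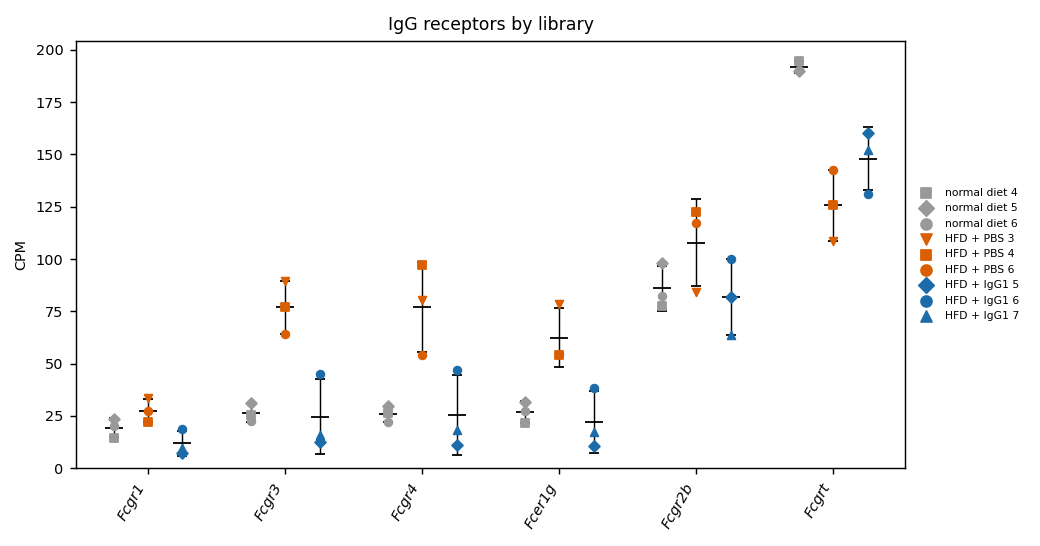
CPM (y axis, from 0) of 6 IgG receptor genes in each library, by group (grey normal diet, orange HFD + PBS, blue HFD + IgG1), with bars for mean and SD of 3 libraries. The HFD + IgG1 points of Fcgr1, Fcgr3, Fcgr4 and Fcer1g lie below the HFD + PBS points, with replicate 6 highest, and those of Fcgr2b and Fcgrt overlap.

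Below these receptors, the list of ITAM and Syk signalling was negative in 23 of 23 members, 21 of them nominally lower and 10 separated, with a median of -1.35. The adaptor Dok3 was at 20.1, 10.6 and 17.3 CPM in HFD + PBS and 1.78, 7.21 and 3.32 CPM in HFD + IgG1 (-1.95 ± 0.45). Values of Lyn, a Src-family kinase that phosphorylates ITAMs, were 112, 77.8 and 88.1 against 46.2, 75.2 and 43.8 CPM, a smaller fold change of -0.75 ± 0.22. Ptpn6, the phosphatase SHP-1 that opposes them, was lower too (84.6, 50.4 and 58.1 against 26.3, 47.1 and 27.4 CPM, -0.94 ± 0.26). Hcst, the adaptor DAP10, was at -1.18 ± 0.34. The list's median was -1.14 with 4 nominally lower members without the 3 conflicting libraries, and -2.08 without HFD + IgG1 replicate 6.

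Complement, the plasma cascade that IgG can start through C1q, held members that were lower and members that were higher. C1qa, C1qb and C1qc, which macrophages make, were separated and lower, with C1qb at 337, 358 and 297 CPM in HFD + PBS and 69.3, 226 and 106 CPM in HFD + IgG1 (-1.30 ± 0.36) and C1qa at -1.24 ± 0.35. Higher were C8a and C8g, terminal components made by hepatocytes. C8a was at 539, 706 and 604 against 1437, 1130.2 and 1458 CPM (1.12 ± 0.22) and C8g at 166, 165 and 205 against 331, 249.7 and 337 CPM (0.78 ± 0.22), both separated. C8a is also a member of the male-biased list described below. Of 24 tested components 6 were nominally higher and 5 nominally lower with a median of 0.14, which was 0.02 without HFD + PBS replicate 3 and 0.09 without HFD + IgG1 replicate 6. Without the 3 conflicting libraries 2 were nominally higher and 4 lower. Complement receptors had 6 of 10 members nominally lower and 1 higher. The lower ones included Vsig4, the Kupffer cell receptor for C3b (214, 239.9 and 299 against 53.7, 189 and 71.1 CPM, -1.26 ± 0.44), C5ar1, the C5a receptor (17.9, 9.21 and 13 against 1.14, 8.18 and 1.39 CPM, -1.89 ± 0.70), and the integrin chain Itgb2 (-1.51 ± 0.56). The higher one was Cd59a, which blocks the terminal complex (42.3, 39.4 and 48.02 against 71, 57.6 and 61.05 CPM, 0.55 ± 0.18). The median of complement receptors was -1.04, and -0.93 with 0 members nominally lower and 1 higher without the 3 conflicting libraries.

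Neutrophil granule genes had the lowest median fold change of the leukocyte lists. Mean levels of the granule protein list, as log2(CPM + 1) minus the HFD + PBS mean, were 1.28, -1.36 and 0.07 in HFD + PBS and -5.43, -0.90 and -4.98 in HFD + IgG1. HFD + IgG1 replicates 5 and 7 thus lay far below every HFD + PBS library, and replicate 6 lay within their range. Summed over the list, granule transcripts were 10190.0, 4038 and 4833 CPM in HFD + PBS and 125, 3084 and 278 CPM in HFD + IgG1. All 17 tested members were negative, with a median of -3.02, and 3 were nominally lower. Those were Stfa2l1, a stefin (1.81, 1.66 and 0.980 against 0.214, 0.428 and 0 CPM, -2.73 ± 0.86), the lysozyme gene Lyz2 (1226, 501 and 842 against 99.7, 644 and 217 CPM, -1.42 ± 0.60) and Padi4, which citrullinates histones in neutrophil traps (22.9, 1.89 and 10.2 against 0.428, 3.63 and 0 CPM, -3.06 ± 1.31). The median was -2.77 with 0 members nominally lower without the 3 conflicting libraries, and -7.26 without HFD + IgG1 replicate 6.

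Receptors that guide neutrophils varied less within HFD + PBS, and 17 of 20 were nominally lower, 14 of them separated. Il1r2, the decoy receptor for interleukin-1 (ENSMUSG00000026073, chromosome 1, 40074079 to 40125231, mm10), stood at 10.9, 9.72 and 7.01 CPM in HFD + PBS and 0, 1.02 and 0.181 CPM in HFD + IgG1. Its fold change was -4.42 ± 0.83 (edgeR adjusted p = 0.14). The formyl peptide receptor Fpr2 was at 22.1, 10.8 and 13.5 against 1.78, 7.802 and 1.99 CPM (-1.99 ± 0.53), and Selplg, the selectin ligand PSGL-1, at 54.6, 20.5 and 31.05 against 5.42, 18.3 and 6.82 CPM (-1.79 ± 0.49). The list's median was -2.40, -4.19 without HFD + IgG1 replicate 6, and -2.10 with 3 nominally lower members without the 3 conflicting libraries. All 7 tested genes of the phagocyte NADPH oxidase, which makes superoxide, were nominally lower, with a median of -1.66 (-1.47 and 3 members without the 3). The membrane subunit Cyba was at 95.4, 49.9 and 57.04 against 11.1, 37.4 and 16.8 CPM (-1.63 ± 0.43), the cytosolic Ncf4 at 38.7, 15.2 and 20.3 against 1.998, 11.7 and 2.898 CPM (-2.15 ± 0.62) and Vav1, which activates Rac, at 50.3, 29.9 and 39.6 against 7.71, 21.3 and 8.76 CPM (-1.66 ± 0.39).

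Among macrophage genes, markers of recruited and lipid-associated macrophages, the cells that gather around fat-laden hepatocytes, had 12 of 19 members nominally lower and 10 separated, with a median of -1.48. Trem2, a lipid-sensing receptor of these cells, stood at 17.8, 10.4 and 16.7 CPM in HFD + PBS and 0.999, 5.34 and 1.99 CPM in HFD + IgG1. Each HFD + IgG1 value was below each HFD + PBS value, and the fold change was -2.41 ± 0.66. Spp1, osteopontin, was at 226, 129 and 121 against 40.3, 81.8 and 38.9 CPM (-1.56 ± 0.35), lipoprotein lipase Lpl at 316, 348 and 270.3 against 46.5, 186 and 104 CPM (-1.47 ± 0.42) and the tetraspanin Cd63 at 37.6, 16.8 and 19.4 against 2.64, 11.8 and 5.49 CPM (-1.88 ± 0.58). Of the Kupffer cell markers 9 of 18 were nominally lower. Clec1b was at 42.6, 45.5 and 50.9 against 15.9, 34.1 and 19.99 CPM (-0.99 ± 0.24), and the C1q genes above are members too. Their median was -0.82 and moved to -1.52 without HFD + IgG1 replicate 6. Without the 3 conflicting libraries the medians were -1.28 for the recruited markers, with 6 nominally lower, and -0.60 for the Kupffer markers, with 4.

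MHC class II genes, which present antigen to T helper cells, were negative in 14 of 14, 9 nominally lower and 7 separated, with a median of -1.19. Without the conflicting libraries it was -1.30 with 8 nominally lower. The invariant chain Cd74 stood at 533, 409.6 and 246 CPM in HFD + PBS and 135, 227 and 155 CPM in HFD + IgG1 (-1.20 ± 0.32). The class II chains H2-Ab1 (182, 132 and 71.7 against 42.5, 66.2 and 54.3 CPM, -1.24 ± 0.33) and H2-Aa (-1.20 ± 0.32) and the peptide exchanger H2-DMa (-1.41 ± 0.36) lay close to it. Dendritic cell markers had a median of -0.49 with 4 of 16 nominally lower (-0.22 without HFD + PBS replicate 3 and -0.29 without HFD + IgG1 replicate 7), and class I genes had -0.33 with 3 of 17 (-0.12 without HFD + PBS replicate 3).

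**Figure D3:**
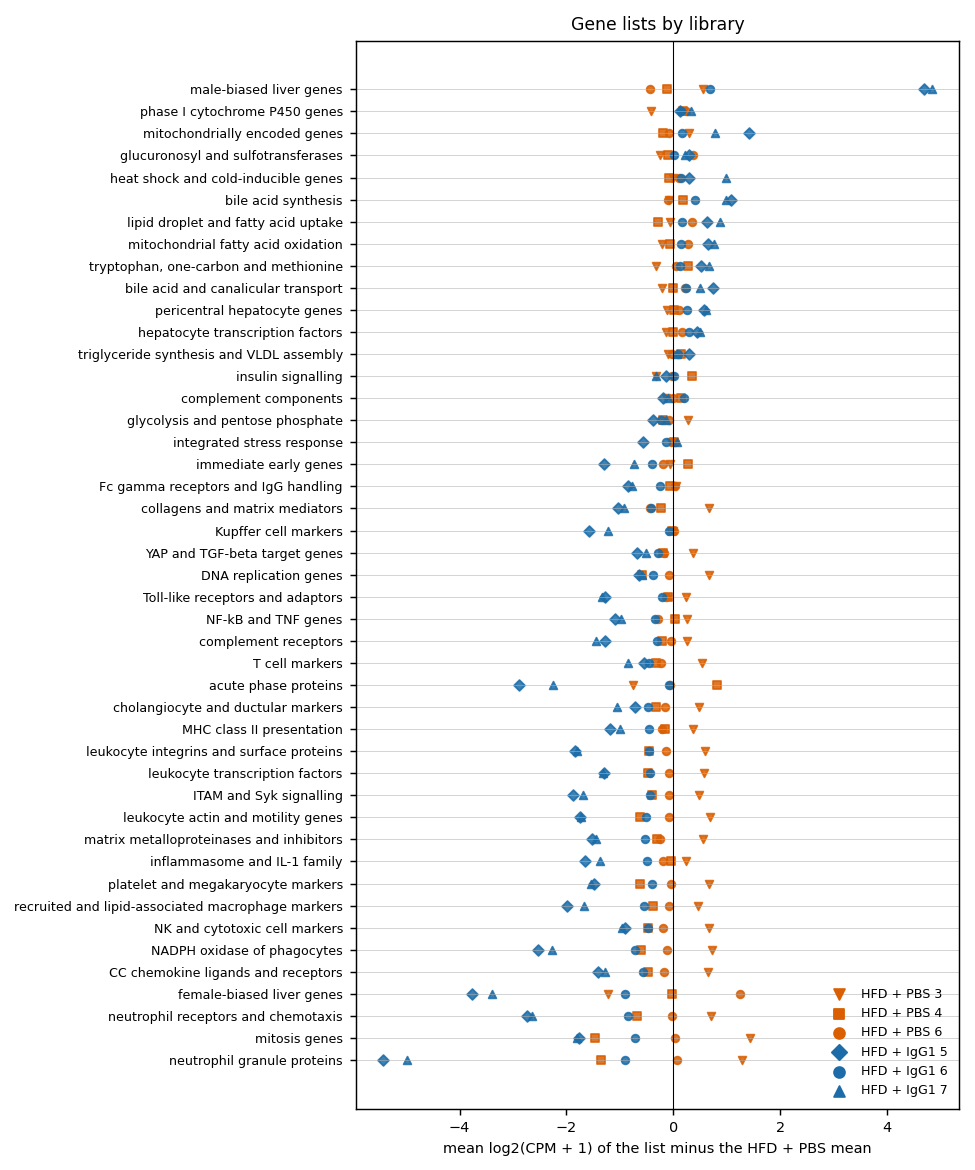
Mean log2(CPM + 1) of each gene list minus the mean of the HFD + PBS libraries (x axis) for the 45 lists described one by one (y axis, ordered by median fold change), with 1 point per library. HFD + IgG1 replicates 5 and 7 stand apart at both ends, and replicate 6 lies within the HFD + PBS range in 19 of the 45 lists, against 3 for replicate 5 and 5 for replicate 7.

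Genes shared by many leukocytes were lower along with them. Of 21 genes of leukocyte actin and motility 20 were nominally lower, with a median of -1.38 (-1.25 and 5 genes without the 3 conflicting libraries). Tagln2, an actin bundling protein, was at 91.9, 50.1 and 46.6 against 13.8, 29.4 and 13.3 CPM (-1.74 ± 0.44), the Arp2/3 subunit Arpc1b at -1.05 ± 0.29, Vasp, which extends actin filaments, at -1.08 ± 0.31 and Dock2, which drives leukocyte migration, at -1.38 ± 0.41. Leukocyte integrins and surface proteins had 15 of 18 nominally lower (median -1.21, -1.89 without HFD + IgG1 replicate 6), and 4 without the 3 conflicting libraries. Among the 15 were the tetraspanin Cd53 (85.2, 57.6 and 64.9 against 15.1, 45.6 and 20.7 CPM, -1.35 ± 0.36) and Itgb7, an integrin of gut-homing lymphocytes (-1.34 ± 0.38). Spi1, which encodes PU.1, stood at 81.1, 42.5 and 59.1 CPM in HFD + PBS and 8.06, 34.9 and 14.3 CPM in HFD + IgG1. Its fold change was -1.67 ± 0.47, and -1.36 without the 3 conflicting libraries. Other leukocyte transcription factors were Irf8 at -1.30 ± 0.41, Ikzf1 at -1.49 ± 0.48 and Nfatc2 at -1.35 ± 0.42, in a list with 12 of 17 nominally lower and a median of -1.30. Without the 3 conflicting libraries 3 of that list were nominally lower.

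Among lymphocyte genes, T cell markers had a median of -1.14 with 6 of 19 nominally lower, and -0.45 without HFD + PBS replicate 3. Cd3e, a chain of the T cell receptor complex, was at 3.89, 1.83 and 2.27 CPM in HFD + PBS and 0.928, 0.962 and 0.604 CPM in HFD + IgG1 (-1.68 ± 0.52), the costimulator Cd28 at 2.47, 8.18 and 1.702 against 1.21, 1.12 and 0.423 CPM (-2.15 ± 0.64) and Cd8a, of cytotoxic T cells, at 9.63, 1.37 and 3.15 against 1.07, 0.481 and 0.362 CPM (-2.90 ± 0.95). NK and cytotoxic markers had a median of -1.65, 7 of 15 nominally lower, and -0.95 without HFD + PBS replicate 3. Without the 3 conflicting libraries 2 of these markers were nominally lower. The granzyme gene Gzma (ENSMUSG00000023132, chromosome 13, 113093825 to 113100981, mm10) stood at 20.2, 1.37 and 1.65 CPM in HFD + PBS and 0.714, 0.534 and 0.302 CPM in HFD + IgG1, so the fold change of -3.91 ± 1.35 came mostly from 1 HFD + PBS library. Gzmb was at 12.1, 2.46 and 4.07 against 1.93, 2.08 and 1.15 CPM (-1.86 ± 0.63) and the chemokine Ccl5 at 36.2, 5.89 and 7.79 against 2.07, 2.35 and 3.26 CPM (-2.70 ± 0.90). B and plasma cell markers were negative in 16 of 20, 7 nominally lower, with a median of -0.85 and -1.07 without the 3 conflicting libraries. Their summed level was 1372, 2164 and 1190.0 CPM in HFD + PBS and 889.8, 1082 and 731 CPM in HFD + IgG1, highest in HFD + PBS replicate 4.

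Immunoglobulin variable segments, the antigen-binding parts of the mice's own antibodies, were lower in a wider set. Of 94 heavy and light chain segments tested, 91 were negative. Their summed level was 169.8, 351.7 and 148.1 CPM in HFD + PBS and 68.7, 106.3 and 40.3 CPM in HFD + IgG1, with no overlap between the groups. Igkv6-23 (ENSMUSG00000095630, chromosome 6, 70260409 to 70260955, mm10) was at 2.52, 4.69 and 8.097 CPM in HFD + PBS and 0.499, 1.18 and 0.725 CPM in HFD + IgG1 (-2.64 ± 0.49) and Igkv6-15 (ENSMUSG00000094797, chromosome 6, 70406469 to 70406992, mm10) at 2.25, 8.29 and 6.14 against 0.428, 0.962 and 0.121 CPM (-3.42 ± 0.70), both with an edgeR adjusted p of 0.14. Segments resemble each other closely, so reads may be shared between them.

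Inflammatory mediators were lower in part. Of the CC chemokine genes 6 of 12 were nominally lower (median -1.67, and -0.88 without HFD + PBS replicate 3), including the monocyte attractants Ccl3 (3.13, 1.09 and 1.599 against 0.0714, 0.534 and 0.181 CPM, -2.81 ± 0.79) and Ccl6 (157, 157 and 147 against 14.8, 88.8 and 19.6 CPM, -1.90 ± 0.64). CXC and CX3C genes had 2 of 15 nominally lower and 1 higher, and a median of -0.999 (-0.54 without HFD + PBS replicate 3). In the inflammasome and IL-1 list 11 of 17 were nominally lower and 12 separated and lower, with a median of -1.45 and -2.24 without HFD + IgG1 replicate 6. Without the 3 conflicting libraries 3 were nominally lower and 1 higher. Nlrp3, the sensor, was at 11.3, 5.32 and 7.63 CPM in HFD + PBS and 1.36, 5.08 and 2.05 CPM in HFD + IgG1 (-1.505 ± 0.46) and Casp1, the protease that matures IL-1β, at 17.4, 8.18 and 8.25 against 2.71, 5.82 and 3.74 CPM (-1.45 ± 0.40). Il1rap, the accessory chain of the IL-1 receptor, went the other way at 56.9, 82.7 and 76.3 against 191, 87.5 and 182 CPM (1.09 ± 0.30), separated. Among the Toll-like receptors and adaptors 10 of 19 were nominally lower, and 1 without the 3 conflicting libraries (median -0.94, -1.58 without HFD + IgG1 replicate 6). Myd88, the adaptor of most of these receptors, was at -0.80 ± 0.25 and Tlr13, a sensor of bacterial RNA, at -1.73 ± 0.58, while Tlr5, the flagellin receptor, was higher at 2.43, 0.858 and 2.11 against 8.63, 2.73 and 3.62 CPM (1.45 ± 0.50).

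NF-kB and TNF genes were negative in 19 of 19, 12 nominally lower, with a median of -0.94 and, without the 3 conflicting libraries, -1.02 with 7 nominally lower. Nfkbia, the inhibitor that NF-kB itself induces, stood at 51.6, 70.2 and 62.4 CPM in HFD + PBS and 27.3, 42.4 and 31.6 CPM in HFD + IgG1. The groups did not overlap, and the fold change was -0.86 ± 0.20. Vcam1, an adhesion molecule for monocytes, was at 157, 193 and 110.0 against 24.8, 76.3 and 26.02 CPM (-1.85 ± 0.51), Tnfrsf1b at -0.76 ± 0.21 and the deubiquitinase Tnfaip3, which ends NF-kB signalling, at -1.30 ± 0.39. Acute phase proteins, which hepatocytes secrete in inflammation, were negative in all 24 tested, with a median of -1.14, yet 0 had a nominal p under 0.05 and 3 were separated. Library levels of that list were -0.76, 0.81 and -0.06 in HFD + PBS and -2.88, -0.08 and -2.25 in HFD + IgG1, so HFD + PBS replicate 3 lay well below replicate 4. Without HFD + IgG1 replicate 6 the median was -2.21. Il1rn, the IL-1 receptor antagonist, was at 79.2, 197 and 52.8 against 4.64, 48.2 and 5.31 CPM (-2.49 ± 1.14, edgeR adjusted p = 0.23), Lrg1 at 1225, 2446 and 1693 against 307, 1482 and 617 CPM (-1.16 ± 0.54, edgeR adjusted p = 0.22) and the metallothionein Mt1 at 372, 3457 and 1128 against 63.5, 843 and 249.6 CPM (-2.10 ± 1.13, edgeR adjusted p = 0.29). Type I interferon response genes had a median of -0.01 with 0 nominally lower and 1 higher of 23, the median being lowest at -0.51 without HFD + PBS replicate 4 and highest at 0.31 without HFD + PBS replicate 3. Interferon gamma response genes had -0.77 with 5 of 17 nominally lower, and -0.27 without HFD + PBS replicate 3.

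Collagens and matrix mediators were negative in all 21 tested, 9 nominally lower, with a median of -0.81, -0.40 without HFD + PBS replicate 3 and -1.02 with 9 nominally lower without the 3 conflicting libraries. Ccn2, the connective tissue growth factor that TGF-beta and YAP induce (ENSMUSG00000019997, chromosome 10, 24595442 to 24598683, mm10), stood at 27.99, 33.4 and 19.96 CPM in HFD + PBS and 3.78, 10.3 and 6.82 CPM in HFD + IgG1. All HFD + IgG1 values were below all HFD + PBS values, with a fold change of -1.96 ± 0.37 (edgeR adjusted p = 0.14). The basement membrane collagens Col4a1 and Col4a2 were at -0.999 ± 0.28 and -0.70 ± 0.20, and Tgfb1 overlapped at 50.6, 26.6 and 34.97 against 13.3, 31.3 and 14.97 CPM (-0.91 ± 0.34). Of the matrix metalloproteinases and inhibitors 6 of 17 were nominally lower and 1 was higher (median -1.38). Matrilysin, Mmp7, was at 13.2, 11.1 and 10.99 against 0.214, 3.47 and 0.785 CPM (-2.94 ± 0.84) and the urokinase receptor Plaur at 17.6, 5.32 and 8.51 against 0.714, 3.74 and 0.664 CPM (-2.59 ± 0.78), while Mmp19 was higher at 0.51 ± 0.15.

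YAP and TGF-beta target genes had 7 of 16 nominally lower, with a median of -0.84. Tead1, the DNA-binding partner of YAP, was at -0.84 ± 0.27 and Skil, a repressor of SMADs, at -0.46 ± 0.16, and Amotl2, an inhibitor of YAP that YAP induces, was higher at 0.66 ± 0.19. Cholangiocyte and ductular markers had 6 of 14 nominally lower and 1 higher, and a median of -1.18, -0.78 without HFD + PBS replicate 3 and -1.49 without the 3 conflicting libraries. Muc1, a mucin of duct cells, was at 5.56, 3.32 and 3.56 CPM in HFD + PBS and 1.21, 1.34 and 0.845 CPM in HFD + IgG1 (-1.87 ± 0.39), Tspan8 at 9.76, 5.09 and 5.21 against 2.28, 2.14 and 1.27 CPM (-1.82 ± 0.42) and the keratin Krt7 at 3.44, 2.52 and 1.96 against 1.28, 0.962 and 0.725 CPM (-1.42 ± 0.39). Platelet and megakaryocyte markers were negative in all 9 tested, 3 nominally lower, with a median of -1.47 and -2.28 without HFD + IgG1 replicate 6. Itgb3, the platelet integrin chain, was at 29.1, 51.1 and 26.3 against 5.21, 21.1 and 4.47 CPM (-1.78 ± 0.59) and Pf4 overlapped at -1.47 ± 0.55.

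Genes of cell division varied widely among the controls. Mitosis genes were negative in all 24, 20 nominally lower, with a median of -2.45, but only 1 was separated. Their levels were 1.43, -1.46 and 0.03 in HFD + PBS and -1.76, -0.71 and -1.80 in HFD + IgG1. HFD + PBS replicate 3 was high, and replicate 4 lay below HFD + IgG1 replicate 6. Without HFD + PBS replicate 3 the median was -1.28, and without the 3 conflicting libraries -2.40 with 2 nominally lower. Ccnb2, cyclin B2, was at 13.6, 1.14 and 4.95 against 0.642, 1.34 and 0.845 CPM (-2.78 ± 0.85), the spindle checkpoint kinase Ttk at 4.68, 0.515 and 0.825 against 0, 0.428 and 0.181 CPM (-3.20 ± 1.04) and Ube2c, which feeds the anaphase-promoting complex, at 14.04, 1.26 and 3.35 against 0.214, 1.82 and 0.845 CPM (-2.66 ± 0.90). DNA replication genes had 9 of 24 nominally lower and 2 higher, with a median of -0.87 and -0.49 without HFD + PBS replicate 3. Without the 3 conflicting libraries 2 were nominally lower and 0 higher. Rrm2, a subunit of ribonucleotide reductase, was at 24.7, 7.15 and 9.64 against 3.14, 5.34 and 2.66 CPM (-1.89 ± 0.48), and Mcm10, a replication initiation factor, was higher at 9.405, 4.803 and 5.98 against 42.7, 10.8 and 40.7 CPM (2.21 ± 0.68).

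The genes with the smallest p came from several processes. Among those higher, Bdh2, a cytosolic dehydrogenase of ketone body and siderophore metabolism (ENSMUSG00000028167, chromosome 3, 135281221 to 135304426, mm10), stood at 2.296, 2.52 and 2.68 CPM in HFD + PBS and 15.8, 6.36 and 15.5 CPM in HFD + IgG1. The 3 HFD + IgG1 values were all above the HFD + PBS values, and the fold change was 2.33 ± 0.38. Abca8a, a lipid transporter (ENSMUSG00000041828, chromosome 11, 110025634 to 110095978, mm10), was at 39.6, 32.5 and 38.6 against 292, 85.8 and 166 CPM (2.30 ± 0.38). Sdr9c7, a short-chain dehydrogenase (ENSMUSG00000040127, chromosome 10, 127898518 to 127911761, mm10), was at 22.2, 12.8 and 33.4 against 130.4, 76.8 and 116 CPM (2.24 ± 0.37). Acsm5, a medium-chain acyl-CoA synthetase (ENSMUSG00000030972, chromosome 7, 119519463 to 119545551, mm10), was at 54.3, 47.3 and 57.9 against 136, 87.9 and 123 CPM (1.12 ± 0.19). Afm, the vitamin E carrier afamin (ENSMUSG00000029369, chromosome 5, 90518932 to 90553543, mm10), was at 72.7, 107 and 130.1 against 427, 198 and 301 CPM (1.58 ± 0.29), and Cyp2c23, an epoxygenase of arachidonic acid (ENSMUSG00000025197, chromosome 19, 44005022 to 44029208, mm10), at 149, 103 and 162 against 372, 258 and 391 CPM (1.30 ± 0.23). All 6 had their lowest HFD + IgG1 value in replicate 6, still above the HFD + PBS values, and an edgeR adjusted p of 0.14. Fold changes of the other 4 were 1.38 ± 0.24 for Tmie, a hair cell channel protein, 1.15 ± 0.21 for the N-acetyltransferase-like Nat8f1, 1.12 ± 0.20 for Zfpm1, a cofactor of GATA factors, and 0.94 ± 0.17 for Tmem170. Without the 3 conflicting libraries the 10 lay between 0.92 (Tmem170) and 2.41 (Sdr9c7).

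Among those lower, with the same edgeR adjusted p of 0.14, were Il1r2, Ccn2 and the 2 kappa segments above. Cyp1b1, an extrahepatic cytochrome P450 (ENSMUSG00000024087, chromosome 17, 79701537 to 79715061, mm10), stood at 8.79, 12.2 and 5.98 CPM in HFD + PBS and 1.36, 2.405 and 1.75 CPM in HFD + IgG1 (-2.28 ± 0.40). Rbm3, an RNA-binding protein induced by cold (ENSMUSG00000031167, chromosome X, 8138975 to 8145880, mm10), was at 69.1, 64.3 and 51.4 against 26.8, 38.96 and 30.5 CPM (-0.94 ± 0.18). Apobec3, a cytidine deaminase that restricts retroviruses (ENSMUSG00000009585, chromosome 15, 79891659 to 79915906, mm10), was at 21.9, 14.4 and 15.7 against 3.28, 8.18 and 3.62 CPM (-1.78 ± 0.37). The groups of all 3 were separated, with HFD + IgG1 replicate 6 nearest to HFD + PBS. Serpina3f, a serine protease inhibitor, was at -1.42 ± 0.29, Cfap43, of cilia and flagella, at -1.84 ± 0.38 and Enc1, an actin-binding kelch protein, at -1.28 ± 0.27. Without the 3 conflicting libraries the 10 lay between -4.10 (Il1r2) and -0.98 (Rbm3).

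**Figure D4:**
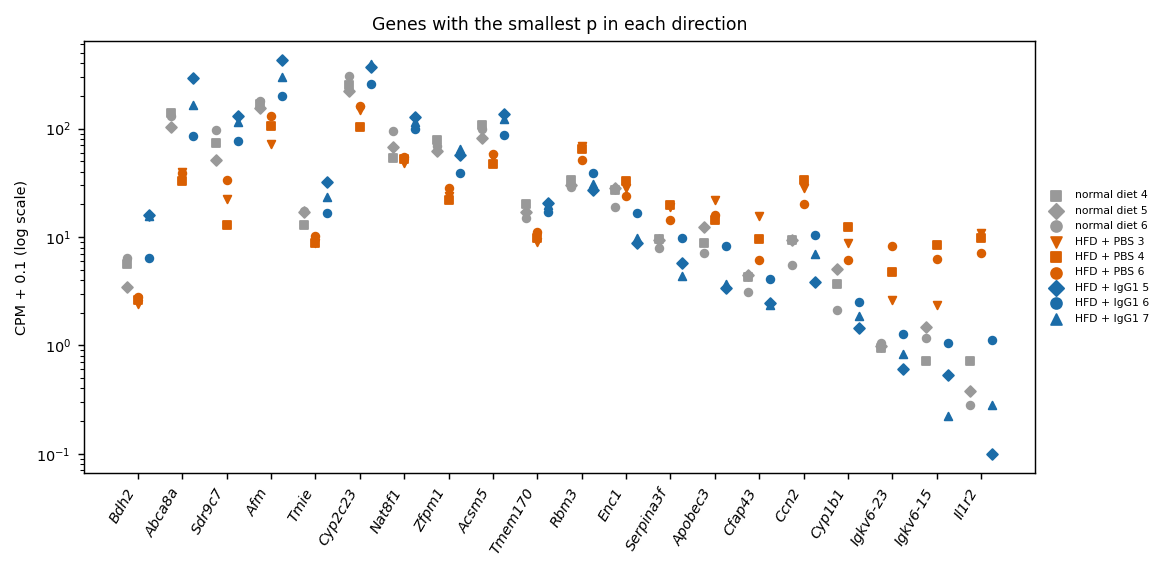
CPM + 0.1 on a log scale (y axis) in each library for the 10 higher and 10 lower genes with the smallest p (x axis, ordered by fold change), coloured by group. In each gene the blue HFD + IgG1 points and the orange HFD + PBS points do not overlap, a condition of the choice.

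Among genes both nominal and separated, the largest positive fold changes belonged to hepatocyte genes with much lower levels in HFD + PBS. Hsd3b5, a male-specific hydroxysteroid dehydrogenase (ENSMUSG00000038092, chromosome 3, 98618634 to 98630252, mm10), was at 0 in every HFD + PBS library and at 257, 0.0534 and 158 CPM in HFD + IgG1. Against a floor of 3 counts over the HFD + PBS group its mean was at least 2743-fold higher. Elovl3, a fatty acid elongase (ENSMUSG00000038754, chromosome 19, 46131897 to 46135694, mm10), was at 0.706, 0 and 0.722 against 467, 1.18 and 469 CPM (9.29 ± 3.01), and Car3, carbonic anhydrase 3 (ENSMUSG00000027559, chromosome 3, 14863512 to 14872523, mm10), at 19.3, 3.202 and 5.47 against 4030.4, 34.04 and 2687 CPM (7.91 ± 1.73). In these 3, HFD + IgG1 replicate 6 stood far closer to HFD + PBS and the difference lay in replicates 5 and 7. Mup11, a major urinary protein gene (ENSMUSG00000073834, chromosome 4, 60658466 to 60662411, mm10), was at 0.177, 0 and 0.206 against 94.1, 0.374 and 143 CPM (9.14 ± 3.21), and Serpina4-ps1 (ENSMUSG00000092075, chromosome 12, 104080649 to 104086724, mm10) at 0, 0.0572 and 0.206 against 29.7, 0.321 and 13.2 CPM (7.29 ± 2.57). Mup10 (ENSMUSG00000078680, chromosome 4, 60578260 to 60582199, mm10) had 2 counts in HFD + PBS and 18419 in HFD + IgG1, a ratio of 11130 after library scaling with a 95% exact interval of 3080 to 91900 that covers counting error only, and nearly all of it came from replicate 7 (0.928, 0.267 and 1111 CPM). The Mup genes are near-identical, so how their reads were divided is uncertain. The edgeR adjusted p values of the 6 ranged from 0.14 to 0.19.

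Among the lower genes with the largest fold changes, beside Il1r2, Gzma and Igkv6-15, Sult1e1, the estrogen sulfotransferase (ENSMUSG00000029272, chromosome 5, 87575969 to 87591594, mm10), stood at 41.02, 302 and 204 CPM in HFD + PBS and 0.0714, 14.8 and 0.121 CPM in HFD + IgG1 (-5.16 ± 1.95, edgeR adjusted p = 0.18). It was near 0 in HFD + IgG1 replicates 5 and 7 and intermediate in replicate 6. Slc10a6, a transporter of sulfated steroids (ENSMUSG00000029321, chromosome 5, 103605711 to 103629403, mm10), was at 2.21, 42.3 and 2.22 against 0.0714, 1.55 and 0.362 CPM (-4.48 ± 1.47, edgeR adjusted p = 0.15), high in HFD + PBS replicate 4 alone. Adcy1, an adenylyl cyclase (ENSMUSG00000020431, chromosome 11, 7063489 to 7178506, mm10), was at 3.75, 19.9 and 25.1 against 0.0714, 3.05 and 0.121 CPM (-3.83 ± 1.60, edgeR adjusted p = 0.20).

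Male-biased liver genes were positive in all 21 tested, 15 nominally higher and 11 separated, with a median of 3.91. Hsd3b5 and Mup1, at 0 counts in HFD + PBS, entered at their lower bounds leave that median at 3.91. By library the list stood at 0.56, -0.12 and -0.44 in HFD + PBS and 4.68, 0.68 and 4.84 in HFD + IgG1. Replicates 5 and 7 were some way above every other library compared, and replicate 6 was just above HFD + PBS replicate 3. Mup3 was at 152, 35.3 and 93.4 CPM in HFD + PBS and 8237, 741 and 8146 CPM in HFD + IgG1 (5.93 ± 1.27), Ugt2b1, a glucuronosyltransferase, at 139.7, 75.6 and 87.7 against 782, 162 and 909 CPM (2.61 ± 0.76) and C8b at 1.06 ± 0.33. HFD + PBS replicate 6, the library with Xist, had the lowest level of the 6 libraries. The median of the male-biased list was 3.17, with 6 nominally higher, without the 3 conflicting libraries. Female-biased genes were negative in all 16 tested, with a median of -2.33, -1.56 without the 3 conflicting libraries and -5.55 without HFD + IgG1 replicate 6, but only 2 were nominally lower, Sult1e1 and Prom1 (46.8, 9.26 and 24.8 against 2.57, 12.7 and 1.27 CPM, -2.28 ± 0.95). Cyp3a41a, a female-specific P450, was at 4.28, 10.3 and 154 CPM in HFD + PBS and 0, 0.428 and 0 CPM in HFD + IgG1 (-8.40 ± 3.65, edgeR adjusted p = 0.22), with its top value in HFD + PBS replicate 6.

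**Figure D5:**
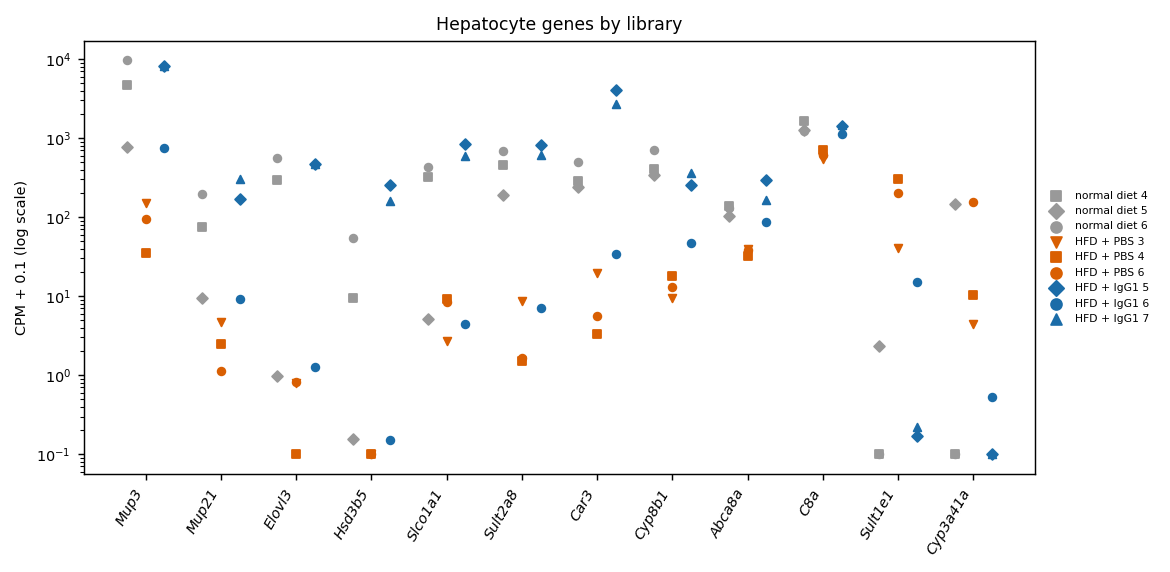
CPM + 0.1 on a log scale (y axis) of 12 hepatocyte genes (x axis) in each library, coloured by group. These genes were picked after their values were seen, and in Mup3, Mup21, Elovl3, Hsd3b5, Slco1a1, Sult2a8, Car3 and Cyp8b1 the points of HFD + IgG1 replicates 5 and 7 lie far above those of replicate 6 and of HFD + PBS.

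Growth hormone and insulin pathway genes included Ghr, the growth hormone receptor, at 165, 175 and 194 CPM in HFD + PBS and 726, 258 and 630.5 CPM in HFD + IgG1 (1.60 ± 0.33, edgeR adjusted p = 0.14). Its values were separated, and those of Igfals, which holds IGF-1 in plasma (43.3, 46.02 and 66.9 against 118, 79.5 and 105 CPM, 0.95 ± 0.21), Igfbp2 (208, 229.7 and 314 against 457, 391 and 540.0 CPM, 0.89 ± 0.21) and the insulin receptor substrate Irs1 (13.1, 8.63 and 11.7 against 31.04, 15.8 and 18.9 CPM, 0.97 ± 0.27) were too. In the list as a whole 5 of 19 were nominally higher and 3 lower, and its median of 0.16 became 0.01 without the 3 conflicting libraries and was lowest at -0.06 without HFD + PBS replicate 3 and highest at 0.21 without HFD + PBS replicate 4. Leukocyte levels differed between the same libraries: the summed level of the ITAM list was 1100.0, 599 and 745 CPM in HFD + PBS and 215, 609.9 and 242 CPM in HFD + IgG1. Its part in the hepatocyte differences was not tested.

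Fatty acid oxidation in mitochondria was positive in all 18 tested genes, 10 nominally higher and 5 separated, with a median of 0.52 and, without the 3 conflicting libraries, 0.55 with 5 nominally higher. Hadh, the short-chain dehydrogenase of the spiral, stood at 132, 119.5 and 156 CPM in HFD + PBS and 259.6, 179.5 and 274 CPM in HFD + IgG1. The groups did not overlap, and the fold change was 0.81 ± 0.20. The thiolase Acaa2 was at 319, 394 and 428 against 877, 462 and 861 CPM (0.95 ± 0.27), Acads, the short-chain acyl-CoA dehydrogenase, at 0.72 ± 0.22 and Hadha, of the trifunctional protein, at 0.65 ± 0.21. Peroxisomal and omega oxidation genes had 6 of 20 nominally higher and a median of 0.31, which was 0.80 without the 3 conflicting libraries, 0.10 without HFD + PBS replicate 3, 0.94 without HFD + PBS replicate 6 and 0.11 without HFD + IgG1 replicate 7. PPAR-alpha and fasting targets had a median of 0.52 with 2 of 17 nominally higher and 1 lower, and 0.28 without HFD + PBS replicate 4 and 0.23 without HFD + IgG1 replicate 7.

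Genes of lipid storage gave a mixed picture. Of the lipid droplet and fatty acid uptake genes 9 of 21 were nominally higher and 2 lower, with a median of 0.53 and 0.31 without HFD + IgG1 replicate 7. Hsd17b13, a droplet enzyme, was at 155, 180.0 and 233 CPM in HFD + PBS and 401, 282 and 355 CPM in HFD + IgG1 (0.87 ± 0.21), Fitm1, which helps droplets bud, at 2.74, 1.09 and 0.722 against 21.9, 4.22 and 29.8 CPM (3.59 ± 0.89) and its relative Fitm2 at 25.1, 28.6 and 36.3 against 64.2, 35.7 and 68.5 CPM (0.90 ± 0.25), which overlapped. Monoglyceride lipase, Mgll, overlapped as well, at 41.1, 39.97 and 73.03 against 164, 65.6 and 112 CPM (1.15 ± 0.33). Among triglyceride synthesis and VLDL assembly genes 7 of 17 were nominally higher and 1 lower, with a median of 0.20 that was 0.06 without HFD + PBS replicate 3, 0.32 without HFD + PBS replicate 6 and 0.13 without HFD + IgG1 replicate 5. Without the 3 conflicting libraries 2 were nominally higher and 0 lower. Ces3a and Ces1d, carboxylesterases that mobilise triglyceride for VLDL, were at 211, 196 and 160.1 against 1404, 287 and 1423 CPM (2.46 ± 0.61) and 111, 193 and 179 against 1163, 293 and 557 CPM (2.06 ± 0.52), and Gpam, which starts glycerolipid synthesis, at 1.14 ± 0.33. The lower gene was Pnpla2, the adipose triglyceride lipase, at 70.5, 134 and 99.8 against 54.02, 67.8 and 63.3 CPM (-0.71 ± 0.22). Cholesterol synthesis had a median of 0.14, with 2 of 20 nominally higher, and it turned to -0.33 without the 3 conflicting libraries. With 1 library left out, it was lowest at -0.15 without HFD + PBS replicate 6 and highest at 0.35 without HFD + PBS replicate 3. Fatty acid synthesis genes had 5 of 18 nominally higher and 1 lower, and a median of 0.58 that was 0.02 without the 3 libraries and 0.17 without HFD + IgG1 replicate 5.

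Bile acid synthesis had 8 of 14 genes nominally higher and 0 lower, with a median of 0.56 and 0.39 with 3 nominally higher without the 3 conflicting libraries. Cyp8b1, the 12α-hydroxylase that makes cholic acid (ENSMUSG00000050445, chromosome 9, 121914356 to 121916305, mm10), stood at 9.405, 17.8 and 13 CPM in HFD + PBS and 256, 46.6 and 363 CPM in HFD + IgG1. HFD + IgG1 replicate 6 was above the HFD + PBS values but far below replicates 5 and 7, and the fold change was 4.05 ± 0.71 (edgeR adjusted p = 0.14) or 3.85 without the 3 libraries. Scp2, the sterol carrier of peroxisomal side-chain cleavage, was at 1569, 1161 and 1395 against 4059, 2017 and 4241 CPM (1.32 ± 0.37), Akr1c6 at 1.09 ± 0.30 and the cholesterol 24-hydroxylase Cyp46a1, below 3 CPM throughout, at 2.88 ± 0.75. Of the bile acid and canalicular transporters 7 of 15 were nominally higher and 1 lower (median 0.49). Without the 3 conflicting libraries 1 was nominally higher and 1 lower. Basolateral export was split: Abcc3 was at 239.7, 226 and 251 against 484, 362 and 397 CPM (0.79 ± 0.17) and Abcc4 at 17.5, 13.04 and 14.7 against 5.99, 10.1 and 4.83 CPM (-1.11 ± 0.29), both separated. The uptake carriers Slco1b2 and Slco1a1 were at 638, 862 and 761 against 1439, 981 and 1246 CPM (0.70 ± 0.21) and 2.61, 9.03 and 8.36 against 853, 4.38 and 593 CPM (6.18 ± 2.17), the latter with replicate 6 inside the HFD + PBS range.

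Detoxification enzymes differed by family. Cytochrome P450 genes of phase I had 8 of 20 nominally higher and 1 lower, with a median of 0.86. Cyp2c29 was at 353, 706 and 484 CPM in HFD + PBS and 2042, 758 and 1569 CPM in HFD + IgG1 (1.501 ± 0.43), Cyp2c50 at 558, 622 and 500.1 against 1143, 792 and 956 CPM (0.78 ± 0.20) and Cyp2u1, a fatty acid hydroxylase, at 1.06, 0.800 and 0.258 against 32.7, 3.53 and 22.6 CPM (4.77 ± 1.09). Cyp2c genes are close relatives, so some reads may be shared. Glucuronosyl and sulfotransferases had 10 of 21 nominally higher and 1 lower, with a median of 0.72 and 0.48 without HFD + IgG1 replicate 7. Ugt2b34 was at 258, 233 and 262 against 742, 352 and 591 CPM (1.16 ± 0.27), Ugt2a3 at 1.39 ± 0.35 and the bile acid sulfotransferase Sult2a8 at 8.65, 1.43 and 1.55 against 827, 7.001 and 602 CPM (6.93 ± 1.77), with replicate 6 again inside the HFD + PBS range. Taken by symbol over all tested genes, Ugt genes were positive in 14 of 17, while Sult genes were negative in 8 of 12, with 3 nominally higher and 1 nominally lower, and had a median of -2.01 that was -0.23 without the 3 conflicting libraries. Some of the negative ones, Sult1e1 among them, are in the female-biased list. One-carbon, methionine and tryptophan genes had 9 of 22 nominally higher, with a median of 0.49 and 0.31 without HFD + PBS replicate 3. Without the 3 conflicting libraries 2 of them were nominally higher. Sardh, sarcosine dehydrogenase, was at 423, 449.5 and 436 against 1115, 589 and 1101 CPM (1.10 ± 0.26).

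Hepatocyte transcription factors were positive in 18 of 20, 7 nominally higher and 1 lower, with a median of 0.31. Tbx3, a Wnt-responsive factor of pericentral cells, stood at 20.4, 9.26 and 25.8 CPM in HFD + PBS and 44.4, 54.7 and 67.7 CPM in HFD + IgG1. Here replicate 6 was not the lowest HFD + IgG1 library, and the fold change was 1.59 ± 0.33, or 1.995 without the 3 conflicting libraries. Foxa1 was at 9.54, 6.92 and 7.32 against 23.5, 11.1 and 24.6 CPM (1.31 ± 0.32) and Cebpa at 226, 168 and 222 against 557, 263 and 460.2 CPM (1.06 ± 0.30). In the pericentral list 6 of 15 were nominally higher (median 0.37, 0.60 without HFD + IgG1 replicate 6 and 0.14 without HFD + IgG1 replicate 7). Its Wnt targets Rnf43 (19.03, 7.26 and 17.02 against 51.3, 28.3 and 34.2 CPM, 1.39 ± 0.36), Axin2 (9.85, 6.58 and 6.86 against 12.9, 14.8 and 10.9 CPM, 0.73 ± 0.23) and Znrf3 (0.68 ± 0.23) were all separated. Periportal genes had 5 of 13 nominally higher and a median of 0.44, which was 0.26 without HFD + PBS replicate 3, 0.29 without HFD + IgG1 replicate 5 and 0.29 without HFD + IgG1 replicate 7, and whether the zones differed was not tested.

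Of the glycolysis and pentose phosphate genes 9 of 24 were nominally lower and 2 higher, with a median of -0.05. With 1 library left out, it was lowest at -0.23 without HFD + IgG1 replicate 7 and highest at -0.0021 without HFD + PBS replicate 3. Without the 3 conflicting libraries it was -0.27, with 4 nominally lower and 1 higher. Lower were Hk3, the hexokinase of leukocytes (71.7, 23.6 and 35.6 against 8.06, 19.9 and 9.72 CPM, -1.79 ± 0.46), the platelet phosphofructokinase Pfkp (-1.36 ± 0.37) and G6pdx, which feeds NADPH to the oxidase (71.97, 24.3 and 39.5 against 8.49, 23.7 and 8.15 CPM, -1.75 ± 0.49), and higher was Pklr, the pyruvate kinase of liver (39.2, 53.3 and 39.2 against 129, 64.9 and 80.7 CPM, 1.06 ± 0.24).

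Among stress genes, immediate early genes were negative in all 20 tested, 8 nominally lower, with a median of -0.77 and, without the 3 conflicting libraries, -0.68 with 7 nominally lower. Klf6 stood at 62.9, 53.3 and 42.9 CPM in HFD + PBS and 14.8, 32.5 and 14.2 CPM in HFD + IgG1 (-1.37 ± 0.33), Myc at 13.03, 12.98 and 14.5 against 2.35, 9.35 and 4.23 CPM (-1.33 ± 0.41) and Klf2 at -0.75 ± 0.22, all separated. Heat shock and cold-inducible genes had 7 of 16 nominally higher and 2 lower, with a median of 0.62 that was 0.24 without HFD + IgG1 replicate 7. Hspa1b, an inducible Hsp70, was at 3.797, 3.32 and 4.23 against 9.99, 5.72 and 54.9 CPM (2.63 ± 0.86), highest in replicate 7, and the cochaperones Fkbp4 and Bag3 were at 0.97 ± 0.25 and 1.23 ± 0.41, while Rbm3, above, is the cold-inducible member. In the integrated stress response list 6 of 20 were nominally lower and 3 higher, with a median of -0.21. With 1 library left out, it was lowest at -0.39 without HFD + IgG1 replicate 6 and highest at -0.06 without HFD + IgG1 replicate 5. Without the 3 conflicting libraries it was -0.02, with 2 nominally lower and 3 higher. Phgdh, which starts serine synthesis, was at 8.301, 1.89 and 2.42 against 0.571, 0.908 and 0.423 CPM (-2.71 ± 0.76) and Ddit4, an inhibitor of mTORC1, at 24.6, 209.9 and 49.98 against 7.85, 13.1 and 23.4 CPM (-2.68 ± 0.78). The unfolded protein response list had a median of 0.32 with 1 of 20 nominally higher, and 0.03 without HFD + IgG1 replicate 7.

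Mitochondrially encoded genes were positive in all 13, 6 nominally higher, with a median of 0.83. That median was 0.47 without HFD + IgG1 replicate 5, the library with Apoe. It was 0.46 without the 3 conflicting libraries, with 1 nominally higher. The mitochondrially encoded genes took 6.31%, 3.48% and 5.12% of counts in HFD + IgG1 and 4.11%, 2.92% and 3.5% in HFD + PBS. mt-Nd3 was at 13.95, 12.9 and 13.4 against 35.7, 18.4 and 28.4 CPM (1.03 ± 0.24) and mt-Nd2 at 2747, 2533 and 3112 against 6291, 3182 and 5276 CPM (0.81 ± 0.28). Nuclear genes of the respiratory chain had a median of 0.39 with 8 of 24 nominally higher and 0 separated, and 0.21 without HFD + IgG1 replicate 7. Cytosolic ribosomal protein genes had a median of -0.13 with 0 of 25 nominal in either direction, the median being lowest at -0.25 without HFD + IgG1 replicate 7 and highest at -0.07 without HFD + PBS replicate 4. Proteasome genes had 0.17 with 3 of 21 nominally higher, and was lowest at 0.0008 without HFD + IgG1 replicate 7 and highest at 0.26 without HFD + IgG1 replicate 6.

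The remaining lists are given by their medians and counts. Leaving out 1 library moved most of these medians by more than 1.5 times, and the values are given beside them. Stellate cell markers had a median of -0.55 (-0.36 without HFD + PBS replicate 3) with 6 of 17 nominally lower, and endothelial markers -0.34 (-0.22 without HFD + IgG1 replicate 7) with 5 of 20. Lysosomal enzymes had -0.41 with 6 lower and 1 higher of 21, and eicosanoid enzymes -0.94 (-1.94 without HFD + IgG1 replicate 6) with 5 of 14 lower. Plasma apolipoproteins, the proteins of lipoprotein particles, had 0.40 (0.21 without HFD + PBS replicate 3, 0.25 without HFD + IgG1 replicate 5, 0.60 without HFD + IgG1 replicate 6 and 0.25 without HFD + IgG1 replicate 7) with 5 of 21 nominally higher. Plasma carriers and serpins had 0.52 (0.27 without HFD + PBS replicate 3) with 4 of 18 higher. Gluconeogenesis and glycogen genes had 0.21 (0.06 without HFD + PBS replicate 3 and 0.38 without HFD + PBS replicate 4) with 6 of 16 higher. The urea cycle and amino acid breakdown had 0.31 (0.08 without HFD + PBS replicate 3, 0.48 without HFD + IgG1 replicate 6 and 0.14 without HFD + IgG1 replicate 7) with 5 of 23 higher. Glutathione and NRF2 genes had 0.46 (0.14 without HFD + PBS replicate 4 and 0.21 without HFD + IgG1 replicate 7) with 6 higher and 1 lower of 20. Coagulation genes had 0.23 (0.02 without HFD + PBS replicate 3 and 0.44 without HFD + PBS replicate 4) with 4 higher and 1 lower of 22. Medians near 0 were those of the circadian clock at 0.16 (lowest at -0.01 without HFD + IgG1 replicate 7 and highest at 0.25 without HFD + PBS replicate 4), p53 targets at -0.16 (lowest at -0.35 without HFD + IgG1 replicate 6 and highest at -0.03 without HFD + PBS replicate 3), sterol control genes at -0.02 (lowest at -0.16 without HFD + PBS replicate 3 and highest at 0.08 without HFD + IgG1 replicate 6) and iron and heme genes at -0.01 (lowest at -0.11 without HFD + PBS replicate 4 and highest at 0.05 without HFD + PBS replicate 6). Lowest and highest here are over fits that leave out 1 library. Without the 3 conflicting libraries the iron and heme median was 0.10. The medians near 0 came with members in both directions. Clock genes had 6 nominally higher and 1 lower of 20, and p53 targets 2 higher and 3 lower of 18. Sterol control genes had 3 higher and 3 lower of 16, and iron and heme genes 2 higher and 3 lower of 19. Of the markers of other tissues, mast cell and basophil genes had 1 of 3 tested nominally lower, erythroid genes 1 higher and 1 lower of 8, and adipocyte genes 1 lower of 7. The 1 nominally lower muscle marker was Myom3, a sarcomere protein, at 7.197, 11.04 and 6.45 against 1.43, 3.63 and 0.966 CPM (-2.02 ± 0.51), a gene named after its values were seen.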

How the data were processed

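Whole-liver RNA (flash frozen, Trizol, NEBNext Ultra libraries, per the labels) was sequenced for 9 samples, 3 per group. The deposited values are raw counts of reads per gene, in 1 table of 54532 gene IDs; per the submitters' processing notes Bowtie 0.12.2 and mm10 were used. For the counting program, its strand setting and its annotation, the sources used here give no name. Reads of near-identical genes (Mup, Ces, Cyp2c, Ugt, Serpina1 and immunoglobulin segments), of overlapping genes and of antisense partners may therefore be shared. IDs were matched to GENCODE M21 on GRCm38. A symbol was found for 54409 of them, and the 123 without one held 0.0133% to 0.0217% of counts. Promoters came from RefSeq (GRCm38.p6).

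Total counts per library were 16215194 to 18538463, and counting intervals cover counting error only. Genes were filtered with filterByExpr (minimum count 10, minimum total 15), leaving 14763. They were tested with edgeR 4.0.16 (R 4.3.3): TMM factors, robust quasi-likelihood F-test, 1 mean per group over all 9 libraries, Benjamini-Hochberg adjustment over all genes tested, threshold 0.05. The standard error was the fold change divided by the square root of F. The labels number the samples and do not say that each is a separate animal, so p-values measure only the spread between these samples, which may be technical. On simulated counts for this comparison with 14763 genes the test recovered 14 of 100 genes changed by a 2-fold factor and 62 of 100 changed by a 4-fold factor, with 9 false calls.

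The 79 gene lists (1366 symbols, 1274 tested) and the genes named were chosen with earlier results of these data known. The text names, per direction, 10 genes by p (separated, mean of at least 1 CPM) and 6 by fold change (nominal p, separated, at least 5 CPM), up to 4 members by p of each list with 5 tested members or more and at least 40% nominal or a median of at least 1 in size, and fixed IgG receptor genes. Some genes that this rule would name are not reported here. Others were named after their values were seen: Pigr, Myom3, the hepatocyte markers and Mup21. A fold change against a group at 0 used a floor of 3 counts over the group. Alternatives were DESeq2 1.42.0, limma-voom (limma 3.58.1), other scalings, filters and sets of libraries.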

Additional observations from a re-analysis of the deposited data

How the results depend on the processing

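The number of genes called at an adjusted p under 0.05 was 0 with edgeR over all 9 libraries, 1265 with DESeq2, 57 with edgeR without a filter on low counts and 556 with replicate 5 as the only antibody library, the one whose treatment label reads IgG1; that library is then assumed to vary like the other groups. It was 0 with limma-voom, RLE or upper-quartile factors, a filter of 1 CPM in 3 libraries, non-robust estimates, the 6 compared libraries alone, a covariate for Y-linked reads, no mitochondrially encoded genes, and without the 3 conflicting libraries. The number with an unadjusted p under 0.05 was 3569, and 1249 without the 3 conflicting libraries, where fewer samples were used. Leaving out 1 library at a time gave 0 to 2356 called genes and 1711 to 5092 with an unadjusted p under 0.05, the highest of each without HFD + IgG1 replicate 6. Called genes were 0 without any of the other 5, and the lowest unadjusted count was without HFD + IgG1 replicate 5. The cause of these differences was not tested. Over the 18 alternatives, the fold changes of the 198 named genes turned sign in 0 cases. Of the medians of the 45 lists described one by one, 1 turned, insulin signalling at -0.06 without HFD + PBS replicate 3, and 7 of the other 34 did. Apart from the fixed genes, the named genes and the 45 lists were chosen by their values in these same libraries. Few turns were therefore likely from the start, and these counts are no independent support. No paired analysis was possible because the 2 groups share only the replicate number 6. With 3 libraries a group and a biological coefficient of variation of 0.318, differences of about 2-fold were mostly not detectable.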

Other observations

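Symbol families are the genes whose symbols share the letters before the first digit or hyphen. They were not set by a list, but some of their genes are also in the lists above, so they are no separate support. Over all 14763 genes tested, 7791 were positive and 6972 negative. Of the 248 families with 8 or more tested genes, those described here were picked after their values were seen. Major urinary protein genes (Mup) were positive in 19 of 19, 9 nominally higher. No median is given for them, since some had 0 counts in HFD + PBS. Carboxylesterases (Ces) were positive in 12 of 13 with a median fold change (log2) of 1.42, and hydroxysteroid dehydrogenases (Hsd) in 12 of 12 with a median of 0.82. Aldo-keto reductases (Akr) were divided, with 8 nominally higher and 4 nominally lower of 14. Sulfotransferases (Sult) were negative in 8 of 12, as given above.

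In the other direction, kappa segments (Igkv) were negative in 51 of 52 with a median of -1.57, and heavy chain segments (Ighv) in 38 of 39 with -1.49. The Ms4a genes of B cells and myeloid cells were negative in 10 of 11 (median -1.56), C-type lectins (Clec) in 19 of 22 (median -1.23) and genes with a Cd symbol in 74 of 83 (median -1.06). The letters Rps and Rpl are those of ribosomal subunit genes, but families formed by letters can hold other genes too. Their medians were smaller, -0.195 for Rps (53 of 65 negative) and -0.10 for Rpl (56 of 78 negative).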
